A study of Mus musculus with 4 samples.

Results

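Small RNA host genes are noncoding genes whose transcripts carry small RNAs inside them. In the SNHG and Gas5 genes these are small nucleolar RNAs (snoRNAs), which are cut out of the introns after splicing and guide the chemical modification of ribosomal and spliceosomal RNA. Box C/D snoRNAs guide methylation of the ribose and box H/ACA snoRNAs guide conversion of uridine to pseudouridine, while scaRNAs do the same work in the Cajal body. Mir17hg carries the microRNA cluster miR-17-92, whose hairpins are cut from the primary transcript in the nucleus and which is best known for promoting cell proliferation and survival in embryos and tumours. Several snoRNA hosts, Gas5 among them, begin with the 5′ terminal oligopyrimidine (TOP) tract of ribosomal protein messages, and their spliced RNA is degraded by nonsense-mediated decay.

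The members were 9 noncoding host genes chosen by name (Snhg1, Snhg3, Snhg5, Snhg6, Snhg8, Snhg12, Snhg20, Gas5 and Mir17hg), found by matching the Ensembl identifiers of the expression table to mouse symbols. Of the 9, 8 matched 1 identifier each among the 28765 genes of the table, and Snhg3 was not analysed here. The choice was made with earlier results of the same libraries known, so the members' differences between NTD and control are descriptions and carry no test. All 8 passed the filter of a mean of at least 1 FPKM, in which reads are divided by the gene's length and by the total of the library.

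RNA-seq was done on CD-1 mouse embryos at embryonic day (E) 9.5, around the time the neural tube closes, with 1 library each of NTD brain, control brain, NTD spine and control spine. The embryos with neural tube defects (NTD) had parents kept for over 8 weeks on feed poor in folate, and their mothers were injected with 1.5 mg/kg of methotrexate (MTX), a folate antagonist, on E7.5. The labels carry this protocol for all 4 libraries, so whether control mothers had the diet or an injection is not stated. They give the treatment as folate deficiency for the NTD libraries and as control for the others, and do not say how many embryos a library holds. With 1 library per group no difference has a replicate check and no p-value is given. Treatment cannot be told apart from any batch that the libraries of a treatment share.

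The library totals behind the deposited values lay between 16272101 and 16911677 reads. Forebrain and midbrain markers summed to 67.1 FPKM in NTD brain, 75.3 in control brain, 5.82 in NTD spine and 11.4 in control spine, so the brain libraries carried the regional genes of their label. Trunk Hox and Cdx4 markers summed to 104 FPKM in NTD spine, 91.8 in control spine, 7.14 in NTD brain and 0.172 in control brain. Other tissues were present too. The 4 heart markers summed to 108 FPKM in NTD brain and 25.3 in control brain, and to 261 in NTD spine and 382 in control spine. The 4 erythroid markers summed to 4371 FPKM in NTD brain and 4030 in control brain, and to 3293 in NTD spine and 6257 in control spine. The 4 gut and yolk sac markers summed to 34.6 FPKM in NTD spine and 114 in control spine, with 2 of them at 0 in NTD brain and 3 at 0 in control brain. The 4 early neuron markers summed to 77.3 FPKM in NTD brain and 122 in control brain, and to 28.4 in NTD spine and 62.8 in control spine. Neural progenitor markers summed to 152 FPKM in NTD brain and 178 in control brain, and to 98.2 in NTD spine and 112 in control spine. Somite markers summed to 14.7 FPKM in NTD brain and 4.81 in control brain, and to 111 in NTD spine and 91.96 in control spine. The part of these shifts in the host gene results was not tested, and in bulk tissue fewer cells of a type cannot be told apart from less RNA per cell.

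The 9 hosts hold 37 small RNA genes on their own strand in the GENCODE M21 annotation, of which 29 are snoRNA, 7 miRNA and 1 scaRNA genes. In this annotation 34 of the 37 lie wholly within the union of the host's exons, because transcripts that retain introns are listed among the exons. Small RNA genes take up 20.9% of the exon bases of Snhg1, 19.6% of Snhg12, 17.8% of Gas5, 15.2% of Snhg8, 15.2% of Mir17hg, 8.32% of Snhg5, 7.69% of Snhg20 and none of Snhg6. A host's FPKM therefore covers intron bases and small RNA bases as well as spliced RNA, and the share of each was not tested. Of the small RNA genes, Snord87 was the one read from the table, and the other 36 were not analysed here.

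**Figure D1:**
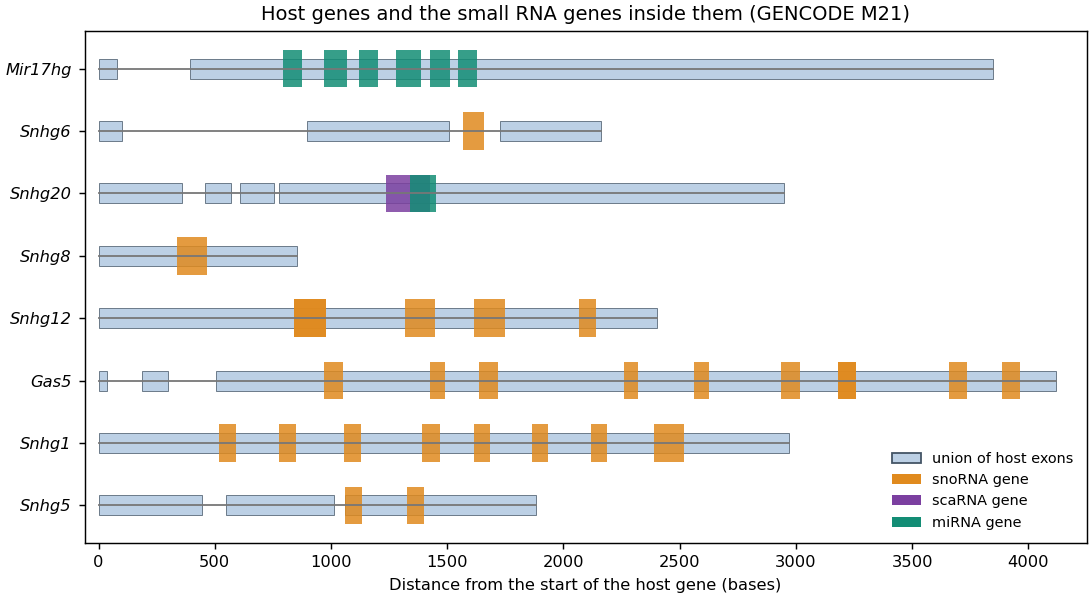
Map of the 8 measured host genes, drawn 5′ to 3′, with distance from the gene start in bases on the x axis. Pale boxes are the union of host exons in GENCODE M21, and coloured boxes are snoRNA, scaRNA and miRNA genes. In Snhg6 the snoRNA gene lies in an intron, and in the other 7 hosts all small RNA genes lie inside annotated exons.

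The microRNAs of Mir17hg are shown because it was about 1.95- to 2.12-fold lower in the NTD libraries and its products are defined by their seeds, bases 2 to 8, which select the messages a microRNA represses. The main arms are given 5′ to 3′ from RefSeq (GRCm38.p6, chromosome 14, plus strand), with the seed in capitals.
mmu-miR-17-5p: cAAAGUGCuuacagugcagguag
mmu-miR-20a-5p: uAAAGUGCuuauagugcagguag
mmu-miR-18a-5p: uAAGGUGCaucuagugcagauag
mmu-miR-19a-3p: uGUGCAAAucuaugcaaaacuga
mmu-miR-19b-3p: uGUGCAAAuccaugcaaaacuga
mmu-miR-92a-3p: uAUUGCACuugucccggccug
They fall into 4 seed groups. The first and second share AAAGUGC, which 7 of the 1679 mature mouse names in the table carry, and miR-19a and miR-19b share GUGCAAA, which no other of these names has. Mature microRNAs were not measured in these libraries.

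The small RNAs inside Snhg6 and Snhg20, the other hosts that were at least 1.5-fold lower in NTD in both tissues, are shown next, from GENCODE M21 on GRCm38. In Snord87, a box C/D snoRNA (chr1:9942463-9942549, minus strand), the capitals mark TGATGA, the core of box C, and CTGA, box D.
Snord87: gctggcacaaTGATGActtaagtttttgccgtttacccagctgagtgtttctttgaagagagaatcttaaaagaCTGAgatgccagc
TGATGA followed by CTGA, searched on the RNA strand, was found in 24.0% of the 1507 snoRNA genes of the annotation and in 18 of the 29 inside these hosts. In Gm26083, the scaRNA gene of Snhg20 (chr11:117077243-117077435, plus strand), the capitals mark the 88 of its 193 bases that also belong to the miRNA gene Mir6516.
Gm26083: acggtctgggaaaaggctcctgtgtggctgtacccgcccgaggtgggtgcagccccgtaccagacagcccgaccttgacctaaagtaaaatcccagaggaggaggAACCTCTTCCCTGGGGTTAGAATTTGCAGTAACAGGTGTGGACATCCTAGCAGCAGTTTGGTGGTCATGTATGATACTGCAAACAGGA

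Start sites are shown because some of these hosts are known TOP genes. RefSeq (GRCm38.p6) held 9 promoter windows of 8 hosts, Snhg3 included and Snhg6 not. A tract was taken as a C followed by at least 4 bases that are each C or T, beginning within 5 bases of the annotated start. It was found in 4 of the 9 windows (1 of the 2 of Gas5, and those of Snhg3, Snhg8 and Snhg12), against 18.3% of all 32851 windows. The 50 bases around the start of 3 of these and of Snhg20 are given with the tract in capitals, and each holds 30 bases before the start.
Gas5, chr1:161035136-161035185, plus strand: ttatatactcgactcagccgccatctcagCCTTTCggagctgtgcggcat
Snhg8, chr3:123508317-123508366, minus strand: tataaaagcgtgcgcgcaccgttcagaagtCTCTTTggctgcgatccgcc
Snhg12, chr4:132308648-132308697, plus strand: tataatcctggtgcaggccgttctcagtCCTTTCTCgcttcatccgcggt
Snhg20, chr11:117076753-117076802, plus strand: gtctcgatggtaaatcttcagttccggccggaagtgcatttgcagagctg
The Snhg20 window held no such tract. The RefSeq starts lie 775 bases downstream of the GENCODE start for Snhg20 and 744 bases for the Gas5 window shown, so these windows describe the RefSeq starts alone. The RefSeq start of Mir17hg lies 1511 bases downstream of the GENCODE start, inside the microRNA cluster, so its window was not read as a promoter. That window remains among the 9 counted for the tract and for CACGTG, so the promoter of Mir17hg was not searched. The sequence CACGTG was in none of the 9 windows and in 7.15% of all windows, and for 9 windows none is near that share.

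In the deposited FPKM, Gas5 had the highest level per length of the 8 hosts in every library, and Snhg20 the lowest. The place of Snhg5 rests on the gene length of 3634 bases behind its values. This is more than the 1880 bases that Snhg5 spans in GENCODE M21, so its reads may also come from bases outside the mapped gene. Its level over the 1730 exon bases of M21 therefore cannot be had from these reads. The order of the hosts between Gas5 and Snhg20 differed between NTD and control libraries. In NTD brain and NTD spine Snhg5 and Snhg1 came next after Gas5, whereas in control brain and control spine Mir17hg and Snhg6 did. The median over the 8 hosts was 15.5 FPKM in NTD brain and 20.6 in control brain, and 13.2 in NTD spine and 22.6 in control spine. With no replicates the spread around each place in these orders is not known.

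**Figure D2:**
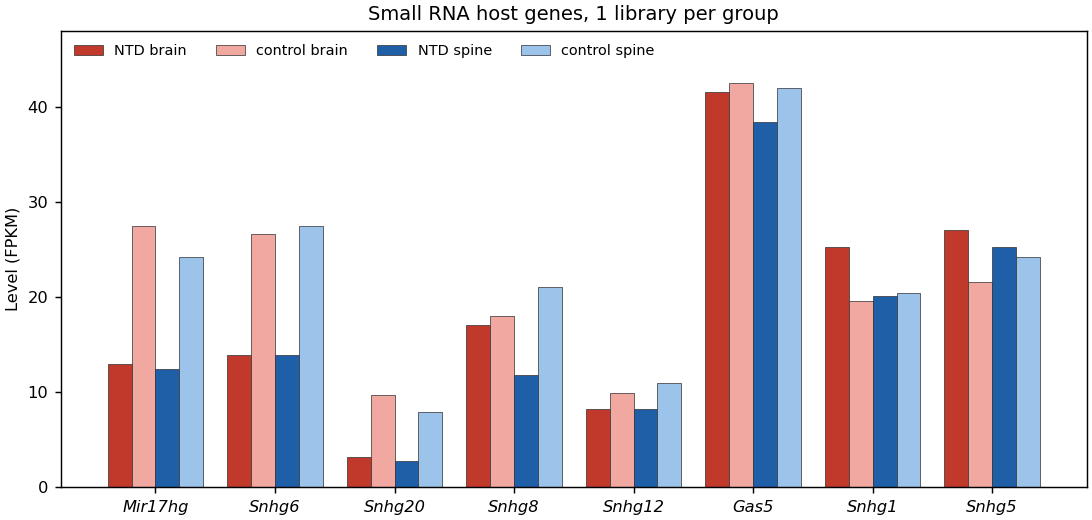
Level in FPKM (y axis, from 0) of the 8 measured host genes, with 1 bar per library and no error bars, since each group is 1 library. Mir17hg, Snhg6, Snhg20, Snhg8, Snhg12 and Gas5 have shorter bars in both NTD libraries than in both control libraries. The gap is narrow for Gas5, which stands between 38.4 and 42.5 FPKM in all 4.

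In NTD brain against control brain, 3 of the 8 hosts were at least 1.5-fold lower on the scale of FPKM + 1 and none was at least 1.5-fold higher. Calls at 1.5-fold and 2-fold are made on this scale throughout, also for the lists of related genes. Among all 12940 genes past the filter, 2.56% were that much lower and 2.02% that much higher. In NTD spine against control spine 4 hosts were at least 1.5-fold lower, against 2.93% of all genes, and none was that much higher, against 1.45%. The same 3 hosts, Mir17hg, Snhg6 and Snhg20, passed in both tissues, where 0.981% of all genes did, and Snhg8 passed in spine only. At 2-fold, 2 hosts were lower in brain (0.781% of all genes) and 1 in spine (0.68%). The median log2 ratio of (FPKM + 1) over the hosts was -0.16 in brain and -0.58 in spine, beside -0.03 and -0.04 over all genes. Since the members were chosen with these ratios known, the counts support nothing beyond their own description.

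The same counts were made for long noncoding genes as a class. Of 446 such genes past the filter, the 8 hosts included, 14.6% were lower by 1.5-fold or more in NTD brain and 12.6% in NTD spine. Among 11199 protein-coding genes the shares were 1.11% in NTD brain and 1.64% in NTD spine. Both tissues passed together in 7.4% of the long noncoding and 0.429% of the protein-coding genes. Genes of other types were not counted as a class, and levels were not matched. The higher share is therefore not shown to be particular to long noncoding genes.

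**Figure D3:**
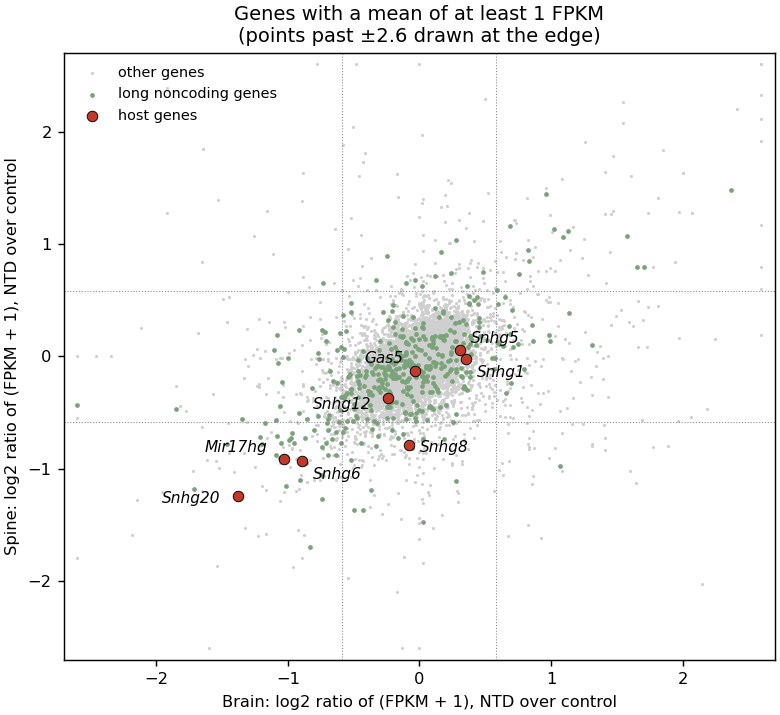
Log2 ratio of (FPKM + 1), NTD over control, in brain (x axis) and spine (y axis) for the 12940 genes past the filter. Dotted lines mark 1.5-fold. Snhg20, Mir17hg and Snhg6 lie below the lower lines in both tissues, Snhg8 below it in spine, and the other 4 hosts inside both pairs of lines.

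Mir17hg, the host of the miR-17-92 microRNAs (ENSMUSG00000089726, GRCm38 chromosome 14, 115042879 to 115046727, plus strand), had 12.998 FPKM in NTD brain and 27.5 FPKM in control brain. In spine it had 12.4 FPKM in NTD and 24.2 FPKM in control. Both NTD libraries were thus below both control libraries. In reads per library total it was 2.12-fold lower in NTD brain (95% counting interval 1.94 to 2.31), from 757 reads against 1645 in control brain. In NTD spine it was 1.95-fold lower (1.79 to 2.14), from 728 reads against 1394 in control spine. Intervals of folds between 2 libraries, here and below, are exact conditional binomial intervals. Those of a spine fold over a brain fold use a normal approximation on the log scale. Both kinds cover counting error only, not the variation between embryos. Of the 12940 genes, 24 had a lower log2 ratio than Mir17hg in both tissues.

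Snhg6, the host of the snoRNA Snord87 (ENSMUSG00000098234, chromosome 1, 9941959 to 9944118, minus strand), stood at 13.9 FPKM in NTD brain and 26.7 FPKM in control brain. It stood at 13.9 FPKM in NTD spine as well, against 27.5 FPKM in control spine. Again the NTD libraries lay well below the control libraries, and both tissues had nearly the same pair of levels. The difference was 1.91-fold in brain (1.65 to 2.23; 263 reads in NTD and 517 in control) and 1.98-fold in spine (1.70 to 2.30; 265 reads in NTD and 513 in control). Snord87 itself, which lies in an intron, was covered by 2 reads in NTD brain, 4 in control brain and 2 in each spine library, and no fold is given. Mcmdc2 overlaps Snhg6 on the other strand by 127 bases. Whether the authors counted by strand is not stated, so reads from these bases cannot be told apart.

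Snhg20, the host of the scaRNA Gm26083 and of Mir6516 (ENSMUSG00000086859, chromosome 11, 117076008 to 117078955, plus strand), was the lowest host and differed most. It had 3.13 FPKM in NTD brain and 9.73 in control brain, and 2.76 FPKM in NTD spine and 7.89 in control spine. Both NTD libraries were below both control libraries. It was 3.11-fold lower in NTD brain (2.57 to 3.78; 144 reads in NTD and 460 in control) and 2.86-fold lower in NTD spine (2.33 to 3.53; 128 reads in NTD and 359 in control). In both tissues together 6 of the 12940 genes had a lower log2 ratio.

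Snhg8, the host of the H/ACA snoRNA Snora24 (ENSMUSG00000104960, chromosome 3, 123507552 to 123508404, minus strand), differed in spine. Its level was 11.8 FPKM in NTD spine and 21.1 FPKM in control spine, 1.79-fold lower (1.48 to 2.18; 167 reads in NTD and 293 in control). In brain it had 17.0 FPKM in NTD and 18.0 FPKM in control, 1.06-fold lower with an interval that spans 1 (0.885 to 1.27; 239 reads in NTD and 260 in control). The spine fold was 0.592 times the brain fold, with a counting interval of 0.457 to 0.767. Whether the tissues differ beyond the variation between embryos was not tested.

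Snhg12, which hosts both H/ACA and C/D snoRNAs (ENSMUSG00000086290, chromosome 4, 132308623 to 132311024, plus strand), was slightly lower in both NTD libraries. It stood at 8.22 FPKM in NTD brain and 9.85 FPKM in control brain, 1.20-fold lower (1.03 to 1.39; 325 reads in NTD and 400 in control). In spine it stood at 8.22 FPKM in NTD and 10.95 FPKM in control, 1.33-fold lower (1.15 to 1.54; 328 reads in NTD and 428 in control). Neither difference reached 1.5-fold.

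Gas5, the growth arrest-specific host of 10 annotated snoRNA genes, of which a pair overlap, (ENSMUSG00000053332, chromosome 1, 161034422 to 161038539, plus strand), was nearly level. It had 41.6 FPKM in NTD brain and 42.5 in control brain, and 38.4 FPKM in NTD spine and 42.0 in control spine. With 2399 to 2704 reads per library it is the most precisely counted host. It was 1.02-fold lower in NTD brain with an interval that spans 1 (0.969 to 1.08) and a sign that changed with the setting, and 1.09-fold lower in NTD spine (1.03 to 1.16). Differences of more than 1.16-fold lower lie outside both counting intervals. Zbtb37 overlaps Gas5 on the other strand by 428 bases, where reads of the pair cannot be told apart.

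Snhg1, the host of Snord22 and 7 other annotated snoRNA genes (ENSMUSG00000108414, chromosome 19, 8723475 to 8726443, plus strand), was higher in NTD brain. It had 25.3 FPKM in NTD brain and 19.5 FPKM in control brain, 1.29-fold higher (1.19 to 1.41; 1235 reads in NTD and 981 in control). In spine the levels were 20.2 FPKM in NTD and 20.5 FPKM in control, with a fold of 0.985 (0.901 to 1.08; 994 reads in NTD and 989 in control). NTD brain thus stood above the other 3 libraries, which lay within 1 FPKM of each other. The spine fold was 0.762 times the brain fold (0.675 to 0.860).

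Snhg5, the host of the C/D snoRNAs Snord50a and Snord50b (ENSMUSG00000097195, chromosome 9, 88521050 to 88522929, minus strand), was higher in NTD brain than in control brain. It had 27.0 FPKM in NTD brain and 21.6 FPKM in control brain, 1.25-fold higher (1.16 to 1.35; 1618 reads in NTD and 1329 in control). In spine it had 25.2 FPKM in NTD and 24.2 FPKM in control, with a fold of 1.04 (0.970 to 1.12; 1522 reads in NTD and 1430 in control). Its spine fold was 0.834 times its brain fold (0.753 to 0.924). Its FPKM give whole reads with a gene length of 3634 bases, more than the 1730 exon bases and the 1880-base span of GENCODE M21. Its reads and folds may therefore also cover bases outside the mapped gene. For given reads the length changes the level but not the folds. Neither Snhg1 nor Snhg5 reached 1.5-fold in either tissue.

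**Figure D4:**
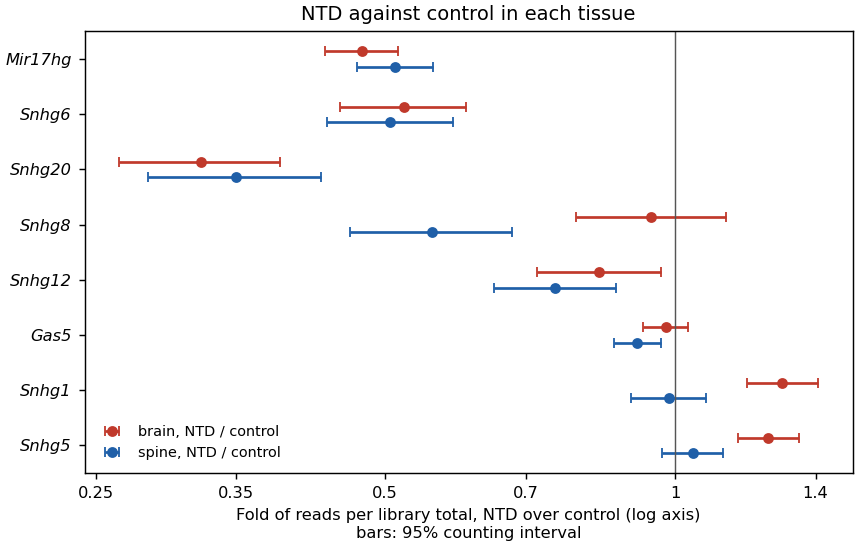
Fold of reads per library total, NTD over control, for each host (log x axis), in brain and spine. Points are the folds of 1 library over 1 library and bars are 95% counting intervals. For Mir17hg, Snhg6 and Snhg20 both points lie between 0.321 and 0.522 with overlapping bars, while the brain and spine bars do not overlap for Snhg8, Snhg1 and Snhg5.

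The hosts' counting intervals lay below equality in 4 of 8 hosts in brain, where 25.7% of the genes with recovered reads did, and in 6 of 8 in spine, where 26.6% did. They lay above it in 2 hosts in brain (16.1% of genes) and in none in spine (17.2%). Ratios were also set against base composition. The tenth of genes with the GC content of Mir17hg had a median log2 ratio of 0.07 in NTD brain and 0.06 in NTD spine, and that of Snhg20 had -0.07 and -0.09. After subtraction of these medians the log2 ratios of Mir17hg were -1.09 and -0.97, of Snhg6 -0.94 and -0.98, and of Snhg20 -1.31 and -1.16.

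Between the tissues the hosts differed little. In control brain against control spine no host reached 1.5-fold in either direction, where 2.91% of all genes were that much higher and 5.27% that much lower. Snhg20 was 1.23-fold higher in control brain than in control spine (1.07 to 1.42) and Mir17hg 1.14-fold higher (1.06 to 1.22). In NTD brain against NTD spine no host reached 1.5-fold either, where 3.41% of genes were that much higher and 4.88% lower. Snhg8 came closest, at 1.44-fold higher in NTD brain (1.18 to 1.77). These comparisons share their libraries with the NTD comparisons above and are not independent of them.

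Among 9 other snoRNA hosts past the filter, listed as noncoding, Dancr alone was at least 1.5-fold lower, and it was so in both tissues. Of the long noncoding genes, 14.6% were that much lower in brain, 12.6% in spine and 7.4% in both. Of all genes, the shares were 2.56%, 2.93% and 0.981%. Dancr as the sole call in a list of 9 is near the long noncoding shares. Snhg11, among the 9, is annotated as protein-coding in GENCODE M21. Snhg10 fell short, with a log2 ratio of -0.54 in brain from 18 reads in NTD and 31 in control. Dancr is best known as a suppressor of differentiation. It had 2.43 FPKM in NTD brain and 5.95 in control brain, and 1.98 FPKM in NTD spine and 5.60 in control spine. The list's median log2 ratio was 0.03 in brain, with 4 members lower, and -0.18 in spine, with 7 lower. Log2 ratios below 0 were found in 56.4% of all genes in brain and 58.0% in spine. Zfas1 had log2 ratios of -0.10 in brain and -0.33 in spine. Epb41l4aos had 34.3 FPKM in NTD spine and 49.0 in control spine, and 48.4 FPKM in NTD brain and 49.2 in control brain. Snhg17 and Snhg15 lay at log2 ratios of 0.24 and 0.28 in brain, and of 0.04 and -0.11 in spine, where the sign of Snhg15 changed with the setting.

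Of 5 other noncoding microRNA hosts past the filter, all 5 had log2 ratios below 0 in both tissues, as did 56.4% of all genes in brain and 58.0% in spine. The hosts of miR-124, a microRNA of differentiating neurons, were the members past 1.5-fold. Of the long noncoding genes, 14.6% were at least 1.5-fold lower in brain and 12.6% in spine, and of all genes 2.56% and 2.93%. Mir124a-1hg was at 0.430 FPKM in NTD brain and 1.81 in control brain, and at 0.476 FPKM in NTD spine and 1.45 in control spine. Mir124-2hg was at 4.49 FPKM in NTD brain and 7.38 in control brain, and its log2 ratio in spine, -0.58, fell just short of the call, while in reads it was 1.66-fold lower there (1.44 to 1.93). The early neuron markers were lower in the same libraries, and their part in this was not tested. H19, the imprinted host of miR-675, stood at 397 FPKM in NTD brain and 424 in control brain, and at 874 FPKM in NTD spine and 1015 in control spine.

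None of 20 listed protein-coding genes that host snoRNAs or microRNAs in their introns reached 1.5-fold in either tissue. The list was picked by name and is not a full set of such hosts, so it does not speak for those outside it. Few genes did: 1.11% of all protein-coding genes were that much lower in brain and 1.64% in spine. Of all genes, 2.02% were that much higher in brain and 1.45% in spine. For a list of 20, no call is near those shares. In brain 19 of them had log2 ratios above 0, with a median of 0.13, and in spine 10 did, with a median of 0.01. Of all genes past the filter, 56.4% had log2 ratios below 0 in brain and 58.0% in spine. Taf1d, a subunit of the RNA polymerase I initiation factor, had 17.7 FPKM in NTD brain and 12.3 in control brain, and 16.1 FPKM in NTD spine and 13.1 in control spine. Hspa8, a constitutive heat shock protein, had log2 ratios of 0.30 in brain and 0.28 in spine, Eef2, the translocation factor, -0.10 and -0.06, and Rack1, a ribosomal scaffold, 0.08 and -0.14. Mcm7, a replicative helicase subunit whose intron holds the related cluster miR-106b-25, was at 128 FPKM in NTD brain and 117 in control brain, and at 119 FPKM in NTD spine and 106 in control spine. Rcc1, whose gene overlaps Snhg3 on the same strand, was at 46.6 FPKM in NTD brain and 45.2 in control brain, and at 46.1 FPKM in NTD spine and 39.8 in control spine.

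**Figure D5:**
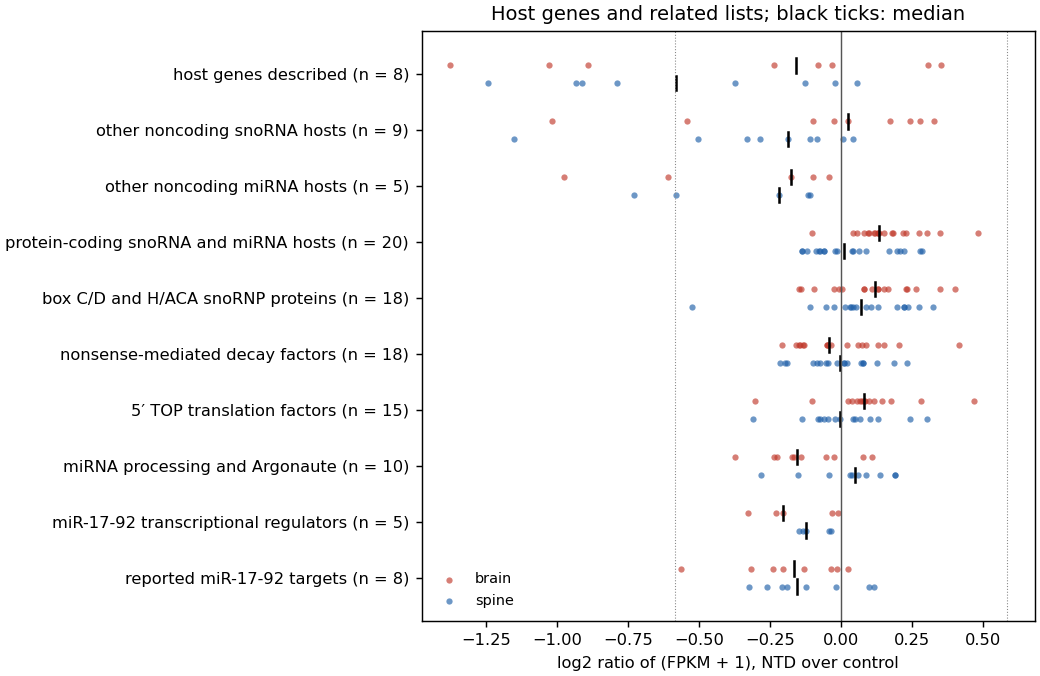
Log2 ratios of (FPKM + 1), NTD over control, for the 8 hosts and for the related lists (members with a mean of at least 1 FPKM), in brain and spine. Points are genes, black ticks are medians, and dotted lines mark 1.5-fold. The ratios of the 8 hosts run from -1.38 to 0.35, while in each of the lists of protein-coding genes every member lies within 1.5-fold.

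The proteins that assemble on snoRNAs and the factors that handle host RNA also stayed within 1.5-fold. Among all protein-coding genes 1.11% were at least 1.5-fold lower in brain and 1.64% in spine, so lists this short would seldom hold a call. Of 18 snoRNP proteins and assembly factors, 13 had log2 ratios above 0 in brain (median 0.12) and 14 in spine (median 0.07). Beside these, 56.4% of all genes were below 0 in brain and 58.0% in spine. Nop58 and Nop56, core proteins of box C/D particles, had ratios of 0.40 and 0.35 in brain and of 0.33 and 0.20 in spine. Pih1d1, of the assembly machinery, was the lowest in spine, at 14.8 FPKM in NTD and 21.8 in control, and Gar1, an H/ACA core protein, the lowest in brain, at 48.6 FPKM in NTD and 54.0 in control. For 18 factors of nonsense-mediated decay the medians were -0.04 in brain and close to 0 in spine. Magohb and Smg8 had 0.42 and 0.13 in brain and -0.05 and 0.19 in spine, and Smg5 and Pnrc2 -0.13 and -0.13 in brain and -0.21 and -0.20 in spine.

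For 15 genes listed as TOP messages, mostly of the translation machinery, the medians were 0.08 in brain and close to 0 in spine. Eef2, Tpt1 and Rack1 are in this list and also among the protein-coding hosts above. Npm1, a nucleolar chaperone, had the highest ratios, 0.47 in brain and 0.30 in spine, and Eif3f, an initiation factor subunit, the lowest, -0.30 and -0.31. Eif3e, another subunit, had 0.28 and 0.24. Dgcr8, the partner of the nuclear microRNA-processing enzyme Drosha, did not pass the filter on the mean, and was chosen after its values were seen. In reads it was 2.20-fold higher in NTD brain (1.50 to 3.28; 88 reads in NTD and 41 in control) and 2.94-fold higher in NTD spine (2.07 to 4.25; 129 reads in NTD and 43 in control). The 10 genes of microRNA processing past the filter had medians of -0.15 in brain and 0.05 in spine, with Ago1, a microRNA effector, at 26.4 FPKM in NTD brain and 34.4 in control brain and at 24.3 FPKM in NTD spine and 29.8 in control spine. Tarbp2, a Dicer partner, had ratios of -0.23 and -0.15, and Xpo5, the nuclear exporter of precursors, and Lin28a, the let-7 inhibitor, 0.11 and 0.08 in brain and 0.19 each in spine.

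Known transcriptional activators of the miR-17-92 host stayed within 1.5-fold, as did most genes. At least 1.5-fold lower were 1.11% of all protein-coding genes in brain and 1.64% in spine. Mycn had 43.2 FPKM in NTD brain and 50.8 in control brain, and 50.8 FPKM in NTD spine and 55.8 in control spine. Myc had 18.0 FPKM in NTD brain and 18.1 in control brain, and 23.6 FPKM in NTD spine and 24.3 in control spine. All 5 genes of this list were below 0 in both tissues, with log2 ratios from -0.33 (E2f2, brain) to -0.01 (Myc, brain). Taken by tissue, 56.4% of all genes were below 0 in brain and 58.0% in spine. The share below 0 in both was not counted. Of 8 reported targets of the cluster none reached 1.5-fold on the scale of FPKM + 1. Ccn2, a secreted matrix-associated protein, was the lowest in brain, at 4.29 FPKM in NTD and 6.80 in control, a log2 ratio of -0.56. In reads it was 1.59-fold lower in NTD brain (1.33 to 1.90), and its fold in spine was 0.986 (0.791 to 1.23). It was chosen after its values were seen. Isl1, a motor neuron factor, had log2 ratios of -0.04 in brain and 0.10 in spine, E2f1 -0.20 and -0.12, and Thbs1, a matrix glycoprotein, -0.24 and -0.32.

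The genes next to the hosts were also read, chosen after their values were seen. Slc3a2, an amino acid transporter subunit whose gene begins 106 bases from Snhg1 on the other strand, had log2 ratios of 0.01 in brain and -0.01 in spine. Sec14l1 and Mgat5b, on either side of Snhg20, had -0.15 and -0.16 in brain and -0.23 and -0.25 in spine. Cops5, the nearest gene past the filter on the upstream side of Snhg6, had 0.19 and 0.04. Neighbours were sought among genes past the filter only, and those of Mir17hg are 1726125 bases or more away. All neighbours past the filter, at most 1 on each side of a host, lay within 1.5-fold in both tissues. Of all genes past the filter, 2.56% in brain and 2.93% in spine were at least 1.5-fold lower.

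By distance between log2(FPKM + 1) patterns centred over the 4 libraries, the gene most like Mir17hg among 7139 searched was Ckb, brain creatine kinase (distance 0.137), followed by Snhg6 (0.171) and Gt(ROSA)26Sor (0.203). Ckb had 37.4 FPKM in NTD brain and 70.9 in control brain, and 31.8 FPKM in NTD spine and 67.3 in control spine. Nearest to Snhg20 were Spaca6, a sperm membrane protein gene (0.219), Mir17hg (0.351) and Ckb (0.364). Nearest to Gas5 were Rps9, a small-subunit ribosomal protein (0.00575), Zcchc17 (0.0106) and Rdh11 (0.0118). The median pattern of the 8 hosts was closest to Alad, Borcs8, Pih1d1, Rnaseh2c and Ift20. With 4 libraries such likeness is a description only.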

How the data were processed

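The authors deposited 1 table of FPKM with 4 columns, 1 per library, whose names match the sample titles. The aligner was HISAT2 2.0.1 and the build mm10, per the submitters' processing notes. How reads were counted, on which annotation, strand and filter, is not given in these sources. Members and lists were chosen with earlier results of these data known.

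Identifiers were matched to GENCODE M21 (GRCm38), and 28698 of 28765 matched. Multiplied by union exon length, the FPKM of a library were whole multiples of a single step, from which its total and each gene's reads were recovered. Within 0.01 reads, 98.6% of matched genes were whole in all 4 libraries, and these reads made up 98.0% to 98.2% of the totals. For Snhg5 and 3 listed genes a search for another length gave whole reads. Libraries were compared by log2 ratios of (FPKM + 1), which understates differences of low genes. Folds are ratios of reads per library total with 95% Clopper-Pearson conditional intervals. Spine folds over brain folds have 95% intervals from a normal approximation on the log scale. Where the labels gave 1 library per group, no test was possible. Named genes were all members, the 2 highest and 2 lowest of each list by the mean of both tissues with at least 5 FPKM, members past 1.5-fold, neighbours and the most alike genes. Mcm7, Rcc1 and the genes beside hosts were chosen after their values were seen. A gene that this rule names is not reported here. The counting intervals and log2 ratios were tried on simulated reads drawn with counting error only, as the intervals assume. The recovery of library totals and gene lengths was not tested this way. Alternatives were pseudocounts of 0.1 and 5, no filter or 5 FPKM, other scalings and a 2-fold call. Calculations used Python 3.11.15, SciPy 1.17.1 and pandas 2.3.3.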

Additional observations from a re-analysis of the deposited data

Results flagged for a closer look

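Rack1, a protein-coding snoRNA host, differed in opposite directions in the tissues, with both counting intervals away from equality. Its log2 ratio of (FPKM + 1), NTD over control, was 0.0822 in brain (275 FPKM in NTD and 260 in control) and -0.14 in spine (244 FPKM in NTD and 268 in control). Each tissue has 1 library per group, and the difference between tissues was not tested.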

How the results depend on the processing

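No paired analysis was possible because each group is 1 library, so the shared replicate number pairs nothing. The log2 ratios of Mir17hg, Snhg6 and Snhg20 were below -0.58 in both tissues under all 8 settings counted for each gene. These were the main setting, pseudocounts, filters, scalings and the GC medians, the last chosen after seeing the data. A filter decides only whether a gene is kept, so the filter settings repeat the main ratio by construction and check nothing for a single gene. Snhg20 ran from -1.61 to -0.86 in brain and from -1.48 to -0.73 in spine. Snhg8 ran from -0.83 to -0.64 in spine. The sign of Gas5 in brain and of Snhg1 in spine changed with the setting, within -0.08 to 0.03. At 2-fold, 1 host was lower in spine in place of 4. Kept to hosts with no small RNA bases in their exons, only Snhg6 remained, so 1 host was lower in each tissue, with medians of -0.89 in brain and -0.93 in spine. The other counts and medians over hosts moved within 1.5 times or the counting intervals. Counting error limits folds most for Snhg20, with 128 reads in its lowest library; without replicates the error between embryos is unknown.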

Other observations

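The deposited FPKM of Snhg5 give whole reads with 3634 bases as the shortest gene length and not with the 1730 exon bases of GENCODE M21, so its level per length refers to a longer model than the one mapped above. Similar searches gave 2652 bases in place of 1359 for Snhg15, 1901 in place of 2929 for Zfas1 and 8527 in place of 8521 for Snhg11. Ratios between libraries do not depend on this length, but the order of levels among hosts does, since the M21 length would place Snhg5 above Gas5 in all 4 libraries. Of the small RNA genes inside the hosts, 34 lie fully in host exons and were not analysed here.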
